A study of Mus musculus with 6 samples.

Results

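The cell cycle and mitosis genes are a list of 40 mouse genes, chosen by symbol and described here in CD4+ T cells that lack the spliceosomal protein CD2BP2/U5-52K. All 40 were found among the 56246 genes of the expression table. They comprise 2 D-type cyclins, 3 G1/S cyclins and kinases, 9 genes of origin licensing and the replicative helicase, 5 of the replication clamp and nucleotide supply, 8 mitotic cyclins, kinases and regulators, 5 of the spindle checkpoint and anaphase promotion, and 8 of the kinetochore, spindle and chromosomes.

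RNA of CD4+ T cells, sorted from spleen and peripheral lymph nodes, was sequenced for 3 Control and 3 cKO mice. Of the cKO mice, which gave KO_7.8, KO_9.10 as well as KO_11.12, each had both CD2BP2/U5-52K alleles floxed (f/f) and carried a CD4-Cre transgene. In Control, CTRL_1.2 and CTRL_3.4 were wt/f and carried the same CD4-Cre, while CTRL_5.6 was f/f without Cre, so that Cre alone is not matched between the conditions. CD4-Cre is active from the double positive thymocyte on, in precursors of CD4+ and CD8+ T cells alike, and peripheral T cells are the cells that remain after that. The digits in the library names are not explained in the sources used here, and p-values rest on the spread among the libraries of a condition.

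A resting T cell is in G0, and a division begins when D-type cyclins with CDK4 and CDK6, and then cyclin E with CDK2, inactivate RB and release E2F factors. E2F turns on genes of licensing, the helicase and nucleotide synthesis for S phase, and the mitotic genes follow in G2 through MuvB complexes with B-MYB and FOXM1 that act at the cell cycle homology region of their promoters. The inhibitor p21, encoded by Cdkn1a and induced by p53, blocks the cyclin E and CDK2 complex, and p53 signaling lowers mitotic genes through the same promoter element.

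The libraries held between 56995121 and 82286366 reads in genes. Cd2bp2, the ablated gene, was at 2624, 2602 and 2612 normalized counts in the Control libraries and at 884, 874 and 738 in the cKO libraries, where a normalized count is the read count divided by the size factor of its library. The cKO libraries lay well below the Control libraries (log2 fold change -1.65 ± 0.11 SE, limma adjusted p = 0.00137). The T cell markers Cd3e and Cd4 were high in all 6 libraries, between 38946 and 58550 and between 54431 and 62831 normalized counts. Cd8a was between 9.70 and 107, and Rag1, a marker of immature thymocytes, between 0 and 9.51.

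KO_7.8 stood apart from the other libraries in these genes and in marker genes of myeloid cells, but not in them alone. Over the 11001 genes tested below it was the highest library in 28.9% and the lowest in 24.8%, the largest shares of any library. CTRL_5.6 came next, with 20.2% and 19.3%. The 12 myeloid markers summed to 31540 normalized counts in KO_7.8, to 6928 and 8311 in KO_9.10 and KO_11.12, and to between 4778 and 8839 in the Control libraries. Lyz2, the lysozyme of macrophages and granulocytes, was at 6603 in KO_7.8 and between 687 and 1336 in the others. The log2 fold changes of members and pathway genes are therefore given with all libraries and, where a gene could still be tested, without KO_7.8. The part of other cells in the results was not tested, and in bulk RNA a smaller number of dividing cells and less RNA of a gene in each cell cannot be told apart.

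Of the 40 members, 39 had a mean of at least 100 normalized counts in at least 1 condition and were tested by limma on log2(normalized count + 1), together with all other such genes. Bub1 and Ttk passed that filter through the cKO mean alone, Foxm1 did not pass, and 37 members passed in both conditions. A gene was called where its adjusted p was under 0.05 and its log2 fold change over 1 in size. No member was called, beside 0.564% of the 11001 genes tested. No member had an adjusted p under 0.05 without the fold change limit either, beside 0.973% of the genes tested, and the lowest adjusted p was 0.159. At an unadjusted limma p under 0.05 there were 4 members, beside 16.7% of all genes tested. edgeR on the whole reads likewise gave 0 members at an adjusted p under 0.05 (1.02% of genes). DESeq2 gave 2, the cyclins Ccnd2 and Ccnb2 (8.42% of genes), and limma with library quality weights gave 7 (19.0% of genes). In 38 of the 39 tested members the log2 fold change was below 1 in size, the exception being Ccnb2.

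The direction of the members as a group rested on KO_7.8. The median log2 fold change of the 39 tested members was 0.29, with 34 positive and 5 negative values, beside 0.01 over all genes tested. Without KO_7.8 the median of the 37 members that could still be tested was -0.12, with 15 positive and 22 negative values, beside 0.02 over all genes. Over the 37 members that passed the filter in both conditions, the median with all libraries was likewise 0.29, with 32 positive and 5 negative values. KO_7.8 had the highest value of the 6 libraries in 34 of the 39 members, whereas it was the highest in 28.9% of all genes tested. The 34 include Bub1 and Ttk, which passed the filter through a cKO mean that KO_7.8 raised. Of the 37 members that passed in both conditions, KO_7.8 was the highest in 32. KO_9.10 had the lowest value in 19 members, beside 17.6% of all genes.

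Library by library, the median of the members, as a log2 difference from the mean of the Control libraries, was 1.42 in KO_7.8 but -0.17 in KO_9.10 and -0.09 in KO_11.12. In the Control libraries it was 0.18 in CTRL_1.2, -0.04 in CTRL_3.4 and -0.09 in CTRL_5.6. KO_9.10 and KO_11.12 thus lay in or just under the Control range. The same medians over all genes tested lay between -0.02 and 0.04 in the 6 libraries. By role, the median ratio of KO_7.8 to the mean of the other cKO libraries was 0.874 for the D-type cyclins, 1.37 for the G1/S genes, 1.43 for licensing and helicase genes and 1.74 for clamp and nucleotide genes. It was 3.45 for mitotic cyclins, kinases and regulators, 3.42 for the 3 checkpoint and anaphase genes that passed the filter in both conditions and 3.83 for kinetochore, spindle and chromosome genes, beside 1.01 over all genes tested. With Bub1 and Ttk, which passed through a cKO mean that KO_7.8 raised, the checkpoint value was 4.31. These differences between roles were not tested.

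**Figure D1:**
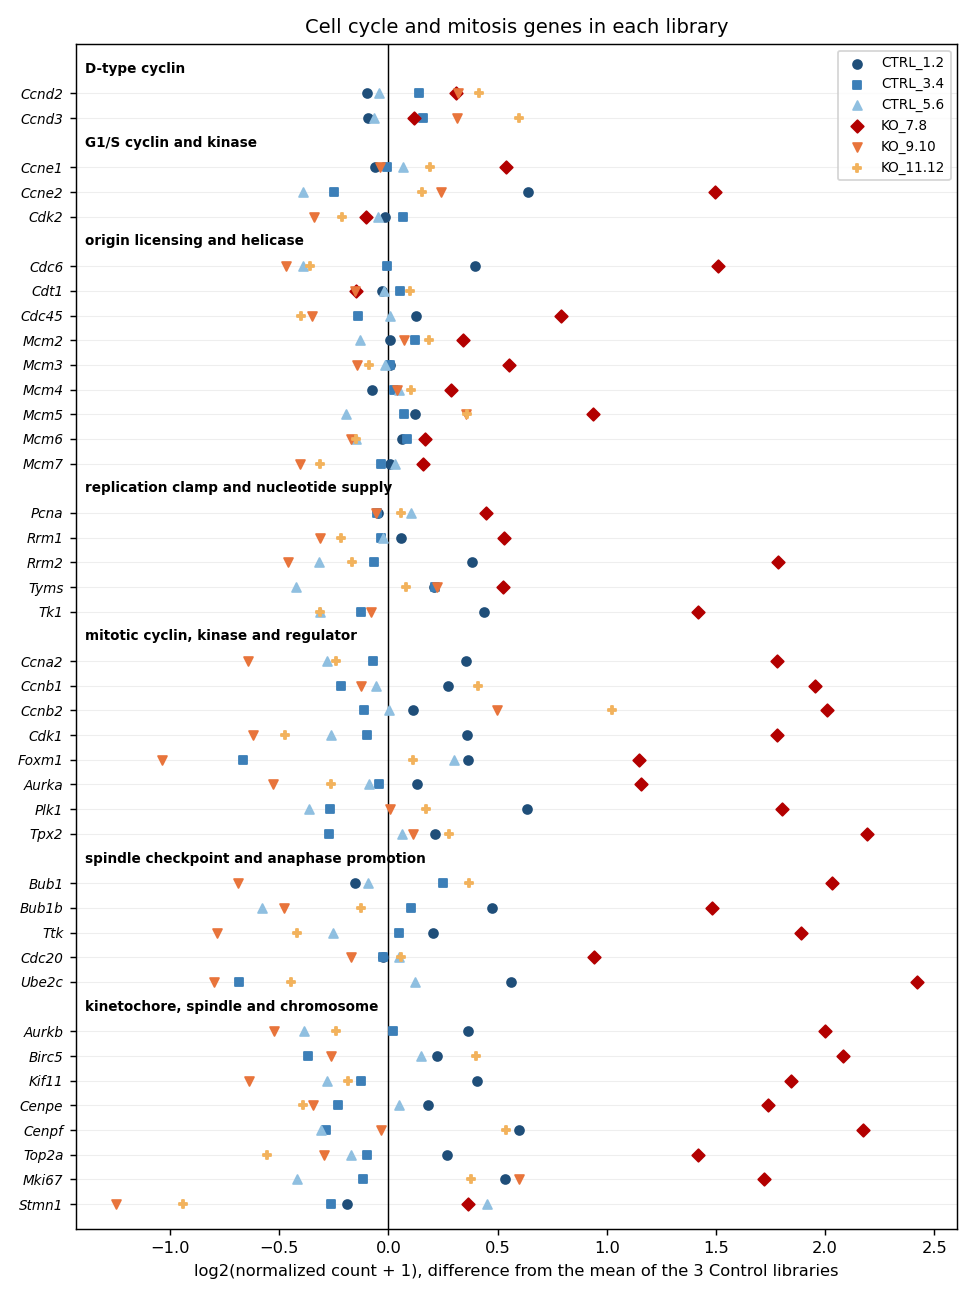
Difference of each of the 40 members in each library from the mean of the 3 Control libraries, on the log2(normalized count + 1) scale (x axis), with the genes by role on the y axis and 1 point per library. KO_7.8 (dark red diamonds) lies far to the right in the mitotic roles, with a median over the tested members of 1.42, while KO_9.10 and KO_11.12 have medians of -0.17 and -0.09.

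Ccnd2 was the most abundant member for its length. Both D-type cyclins had positive log2 fold changes with and without KO_7.8, none of which passed the limma test at an adjusted p under 0.05. Per kilobase of exon, the Control mean was 6295 ± 561 normalized counts for Ccnd2 (SD, n = 3) and 1748 ± 170 for Ccnd3. Ccnd2 (chr6:127125162-127152193, minus strand, GRCm38), which binds CDK4 and CDK6 in stimulated lymphocytes, was at 55169, 65200 and 57324 normalized counts in the Control libraries and at 73264, 73571 and 78851 in the cKO libraries. All 3 cKO libraries lay above all 3 Control libraries, as in 12.6% of all genes tested, with KO_7.8 the lowest of the cKO values. The log2 fold change was 0.35 ± 0.10 (SE) with the smallest p among the members (0.00907, limma adjusted p = 0.159), and 0.37 ± 0.11 without KO_7.8 (limma adjusted p = 0.173). DESeq2 gave an adjusted p of 0.00812 with all libraries and of 0.0222 without KO_7.8.

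Ccnd3 (chr17:47505051-47599691, plus strand), the D-type cyclin that lymphocytes need in their development, was at 14356, 17054 and 14616 in Control and at 16605, 19004 and 23166 in cKO. Only KO_7.8 overlapped with the Control libraries, below CTRL_3.4. Its log2 fold change was 0.34 ± 0.14 (limma adjusted p = 0.287) with all libraries and 0.46 ± 0.13 without KO_7.8 (limma adjusted p = 0.149). DESeq2 gave an adjusted p of 0.165 with all libraries and of 0.0183 without KO_7.8. These 2 genes were the only role group in which KO_7.8 was in no gene the highest library.

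Of the G1/S genes, Cdk2 was the one member whose cKO libraries all lay below the Control libraries, beside 11.5% of all genes tested. Cdk2, the kinase partner of cyclins E and A, was at 5234, 5546 and 5127 in Control and at 4934, 4188 and 4575 in cKO. Its log2 fold change was -0.22 ± 0.09 (limma adjusted p = 0.309) and -0.28 ± 0.09 without KO_7.8 (limma adjusted p = 0.203). DESeq2 gave an adjusted p of 0.139 with all libraries and of 0.0489 without KO_7.8. It was the most abundant of its role for its length, with a Control mean of 853 per kilobase.

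The E cyclins overlapped between the conditions. Ccne1 lay between 624 and 681 in Control and at 946, 634 and 742 in cKO, and Ccne2 between 179 and 366 in Control and at 664, 278 and 261 in cKO. KO_7.8 was the highest library in both. Their log2 fold changes were 0.23 ± 0.17 and 0.63 ± 0.44 with all libraries and 0.08 ± 0.14 and 0.20 ± 0.33 without KO_7.8.

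The subunits of the helicase had log2 fold changes of both signs, and none passed the limma test. MCM2 to MCM7 form 1 ring in equal numbers, which CDC6 and CDT1 load onto origins and CDC45 helps to open. Mcm5 was at 4035, 3890 and 3239 in Control and at 7096, 4733 and 4758 in cKO, with all cKO libraries above all Control libraries, as in 12.6% of all genes tested. Its log2 fold change of 0.55 ± 0.18 (limma adjusted p = 0.21) was the largest of the role, and 0.36 ± 0.12 remained without KO_7.8 (limma adjusted p = 0.199).

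Mcm7 (chr5:138164583-138172422, minus strand) was at 5358, 5214 and 5445 in Control, and at 5949 in KO_7.8 but 4026 and 4296 in the other cKO libraries. KO_7.8 was the highest of the 6 libraries here and the other 2 cKO libraries the lowest. The log2 fold change was -0.19 ± 0.15 with all libraries (limma adjusted p = 0.595) and -0.36 ± 0.09 without KO_7.8 (limma adjusted p = 0.118). DESeq2 gave an adjusted p of 0.00333 without KO_7.8 and of 0.653 with all libraries.

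Mcm6 was the most abundant of the role for its length, with 3314 per kilobase in Control. It was at 16113, 16359 and 13912 in Control and at 17342, 13700 and 13916 in cKO, and the groups overlapped (log2 fold change -0.05 ± 0.12, and -0.16 ± 0.10 without KO_7.8). The other subunits Mcm2, Mcm3 and Mcm4 had log2 fold changes of 0.20 ± 0.11, 0.11 ± 0.18 and 0.14 ± 0.09, and without KO_7.8 of 0.13 ± 0.11, -0.12 ± 0.08 and 0.07 ± 0.09. Of the loading factors, Cdt1 was -0.07 ± 0.11 and Cdc6 0.23 ± 0.54, and Cdc45 was 0.01 ± 0.33. Without KO_7.8, Cdt1 was at -0.03 ± 0.11, Cdc6 at -0.41 ± 0.26 and Cdc45 at -0.38 ± 0.17.

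The genes of the replication clamp and nucleotide supply had KO_7.8 as their highest library in all 5 cases. Pcna, the sliding clamp of the DNA polymerases, was the most abundant for its length with 3105 per kilobase in Control. It was at 7190, 7169 and 7995 in Control and at 10129, 7157 and 7736 in cKO, so that KO_7.8 alone stood above the Control range (log2 fold change 0.15 ± 0.14, limma adjusted p = 0.664). Without KO_7.8 the log2 fold change was -1.7e-04 ± 0.10.

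Ribonucleotide reductase makes deoxynucleotides from its large subunit RRM1 and its small, cell cycle regulated subunit RRM2. Rrm2 was at 2527, 1846 and 1553 in Control and at 6660, 1407 and 1725 in cKO, a spread that left a log2 fold change of 0.39 ± 0.56 with all libraries and of -0.31 ± 0.21 without KO_7.8. Rrm1 was at 5862, 5514 and 5543 in Control and at 8149, 4542 and 4851 in cKO. Without KO_7.8 both cKO values of Rrm1 lay below Control (-0.26 ± 0.09, limma adjusted p = 0.202). For thymidylate synthase Tyms and thymidine kinase Tk1 the log2 fold changes were 0.28 ± 0.21 and 0.34 ± 0.47, and without KO_7.8 0.15 ± 0.21 and -0.20 ± 0.26.

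**Figure D2:**
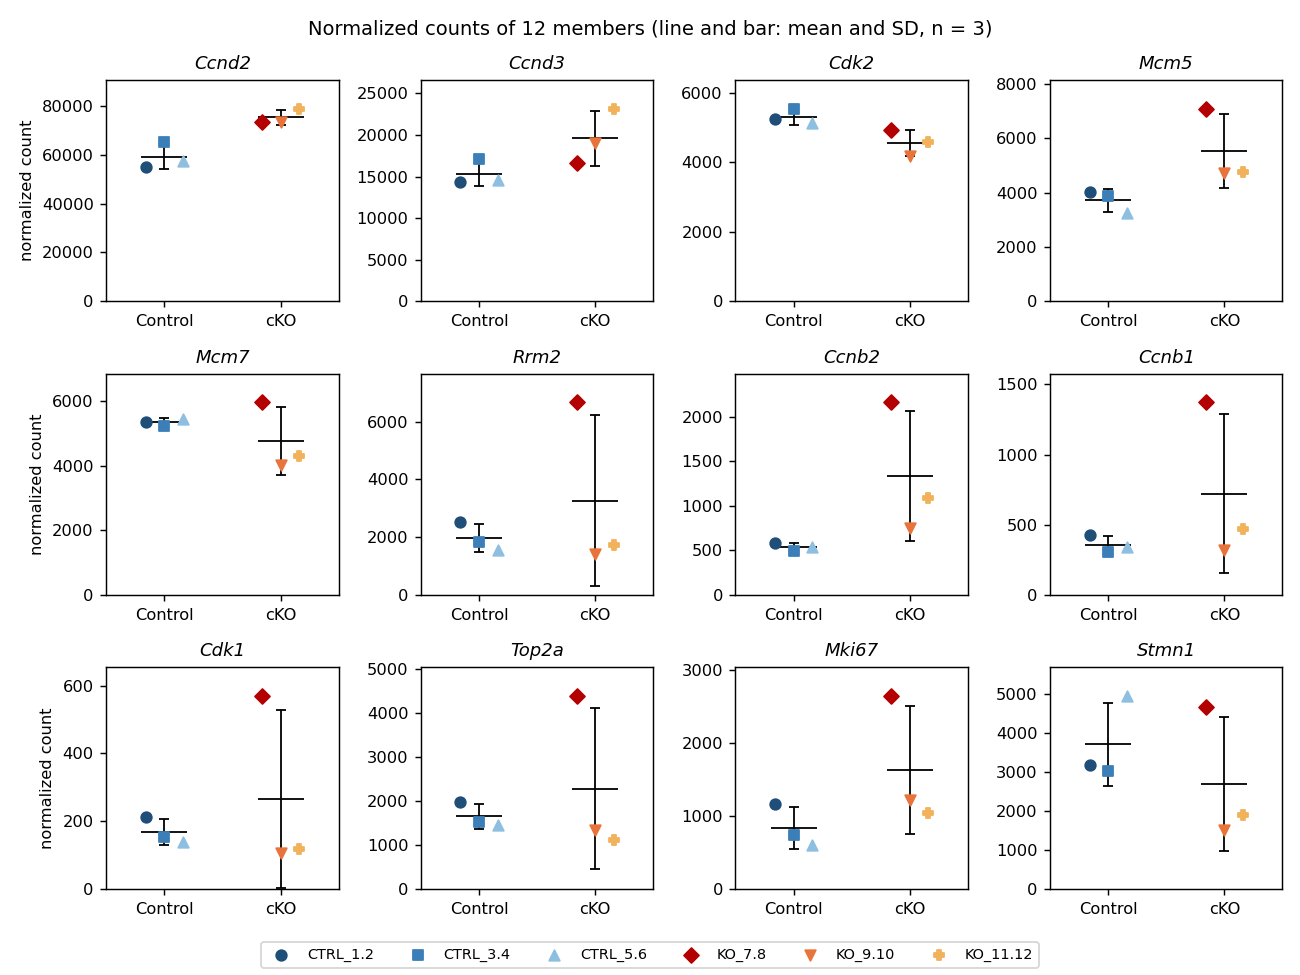
Normalized counts of 12 members (y axis, from 0) in the Control and cKO libraries, 1 symbol per library, with the mean and SD of 3 libraries in black. Ccnd2, Mcm5 and Ccnb2 lie higher and Cdk2 lower in all 3 cKO libraries, and in most of the others KO_7.8 sets the cKO mean and its SD.

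Ccnb2 had the largest log2 fold change of all members, which did not pass the limma test. It encodes cyclin B2, which with CDK1 acts at the Golgi and in the cytoplasm. It was at 579, 495 and 536 normalized counts in Control and at 2159, 755 and 1089 in cKO. All cKO libraries lay above all Control libraries, KO_7.8 the furthest. Of the 39 tested members 3 were so placed, beside 12.6% of all genes tested. The log2 fold change was 1.18 ± 0.36 with all libraries (limma adjusted p = 0.182) and 0.76 ± 0.19 without KO_7.8 (limma adjusted p = 0.124). DESeq2 gave adjusted p-values of 0.0114 and 0.0097 for the same comparisons. It was also the most abundant of its role for its length, with 350 per kilobase in Control.

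For cyclin B1, the main mitotic cyclin, and for the kinase CDK1 itself the conditions overlapped, and their difference from Ccnb2 was not tested. Ccnb1 was at 428, 304 and 340 in Control and at 1372, 324 and 470 in cKO, with a log2 fold change of 0.75 ± 0.50 and of 0.14 ± 0.23 without KO_7.8. Cdk1 was at 212, 154 and 137 in Control and at 569, 107 and 118 in cKO, so that KO_7.8 was the highest library and the other 2 cKO libraries the lowest. Its log2 fold change was 0.23 ± 0.63 with all libraries and -0.55 ± 0.27 without KO_7.8 (limma adjusted p = 0.342).

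The same order of libraries was found in Aurka, the kinase of spindle poles, at 344, 304 and 295 in Control and 699, 217 and 261 in cKO (log2 fold change 0.12 ± 0.42, and -0.40 ± 0.19 without KO_7.8). Ccna2, which serves S phase and mitosis, had a log2 fold change of 0.30 ± 0.61, and of -0.44 ± 0.28 without KO_7.8. Plk1, a kinase of mitotic entry, and Tpx2, which activates Aurora A on the spindle, had 0.66 ± 0.52 and 0.86 ± 0.53 with all libraries and 0.09 ± 0.33 and 0.19 ± 0.20 without KO_7.8. Foxm1, the activator of these genes, was not tested and was listed at 52.8, 25.3 and 50.3 in Control and at 91.5, 19.4 and 44.1 in cKO.

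The spindle checkpoint kinases BUB1, BUBR1 and MPS1, from Bub1, Bub1b and Ttk, hold back the anaphase promoting complex, which CDC20 activates and UBE2C serves as ubiquitin carrier. KO_7.8 was the highest library in all 5 genes, of which Bub1 and Ttk passed the filter through a cKO mean that KO_7.8 raised. Cdc20, the most abundant for its length (408 per kilobase in Control), was at 750, 749 and 788 in Control and at 1466, 677 and 793 in cKO. Ube2c had the widest gap of all members, 550 in KO_7.8 against 58.1 and 74.3 in the other cKO libraries, with 151, 62.9 and 111 in Control.

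The log2 fold changes of this role lay between 0.23 (Ttk, ± 0.70) and 0.57 (Bub1, ± 0.65), with 0.28 ± 0.28 for Cdc20, 0.29 ± 0.53 for Bub1b and 0.39 ± 0.85 for Ube2c, and limma adjusted p-values were at least 0.687. Without KO_7.8, Bub1 and Ttk were below the minimum of the test and the others had negative values, -0.06 ± 0.13 for Cdc20, -0.30 ± 0.32 for Bub1b and -0.62 ± 0.43 for Ube2c.

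Of the kinetochore, spindle and chromosome genes, Stmn1 had a negative log2 fold change and the other 7 had positive ones, and none passed the limma test. Stmn1 (chr4:134468320-134473843, plus strand) encodes stathmin, which destabilizes microtubules and is phosphorylated in mitosis, and was the most abundant for its length with 1929 per kilobase in Control. It was at 3172, 3014 and 4938 in Control, and at 4659 in KO_7.8 but 1522 and 1882 in the other cKO libraries. Those 2 libraries were lower than any Control library and KO_7.8 was within the Control range. With all libraries the log2 fold change was -0.61 ± 0.42 (limma adjusted p = 0.528). Without KO_7.8 it was -1.09 ± 0.23 (limma adjusted p = 0.0931). DESeq2 gave an adjusted p of 0.000187 without KO_7.8 and of 0.599 with all libraries. CTRL_5.6, the Control without Cre, was the highest library. With CTRL_5.6 left out and KO_7.8 kept, the log2 fold change was -0.38 ± 0.46 (limma adjusted p = 0.709).

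Mki67, the antigen of the Ki-67 stain that coats mitotic chromosomes and is absent from G0 cells, was at 1159, 739 and 598 in Control and at 2635, 1212 and 1040 in cKO. KO_9.10 was just above the highest Control library and KO_11.12 just below it. Its log2 fold change was 0.90 ± 0.39 (limma adjusted p = 0.316) and 0.49 ± 0.27 without KO_7.8 (limma adjusted p = 0.392). Top2a, the topoisomerase that untangles sister chromatids, was at 1967, 1529 and 1451 in Control and at 4374, 1332 and 1110 in cKO. Its log2 fold change was 0.19 ± 0.49 with all libraries, and -0.43 ± 0.17 without KO_7.8 (limma adjusted p = 0.252).

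The other members of this role were the Aurora B kinase Aurkb and its partner survivin (Birc5), the spindle motor Kif11, and the kinetochore proteins Cenpe and Cenpf. Their log2 fold changes were 0.41 ± 0.65, 0.74 ± 0.57, 0.34 ± 0.61, 0.33 ± 0.57 and 0.89 ± 0.59 in that order. Without KO_7.8 they were -0.38 ± 0.29, 0.07 ± 0.28, -0.41 ± 0.25, -0.37 ± 0.23 and 0.25 ± 0.38. KO_7.8 was the highest library in each of them, with Kif11 at 1749 there and between 312 and 645 elsewhere.

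Without KO_7.8, limma again called no member at an adjusted p under 0.05 (1.17% of 10944 genes). At an unadjusted p under 0.05 there were 9 of 37 members, Ccnd2, Ccnd3, Mcm5 and Ccnb2 with positive values and Cdk2, Mcm7, Rrm1, Top2a and Stmn1 with negative values, beside 18.0% of all genes. Of the 39 members, both remaining cKO libraries lay above the Control libraries in 4 and below in 11, Ttk among them, which was under the minimum of the test without KO_7.8, beside 20.2% and 19.7% of all genes. DESeq2 without KO_7.8 gave 6 members at an adjusted p under 0.05 (8.69% of genes), namely Ccnd2, Ccnd3 and Ccnb2 with positive values and Cdk2, Mcm7 and Stmn1 with negative values.

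**Figure D3:**
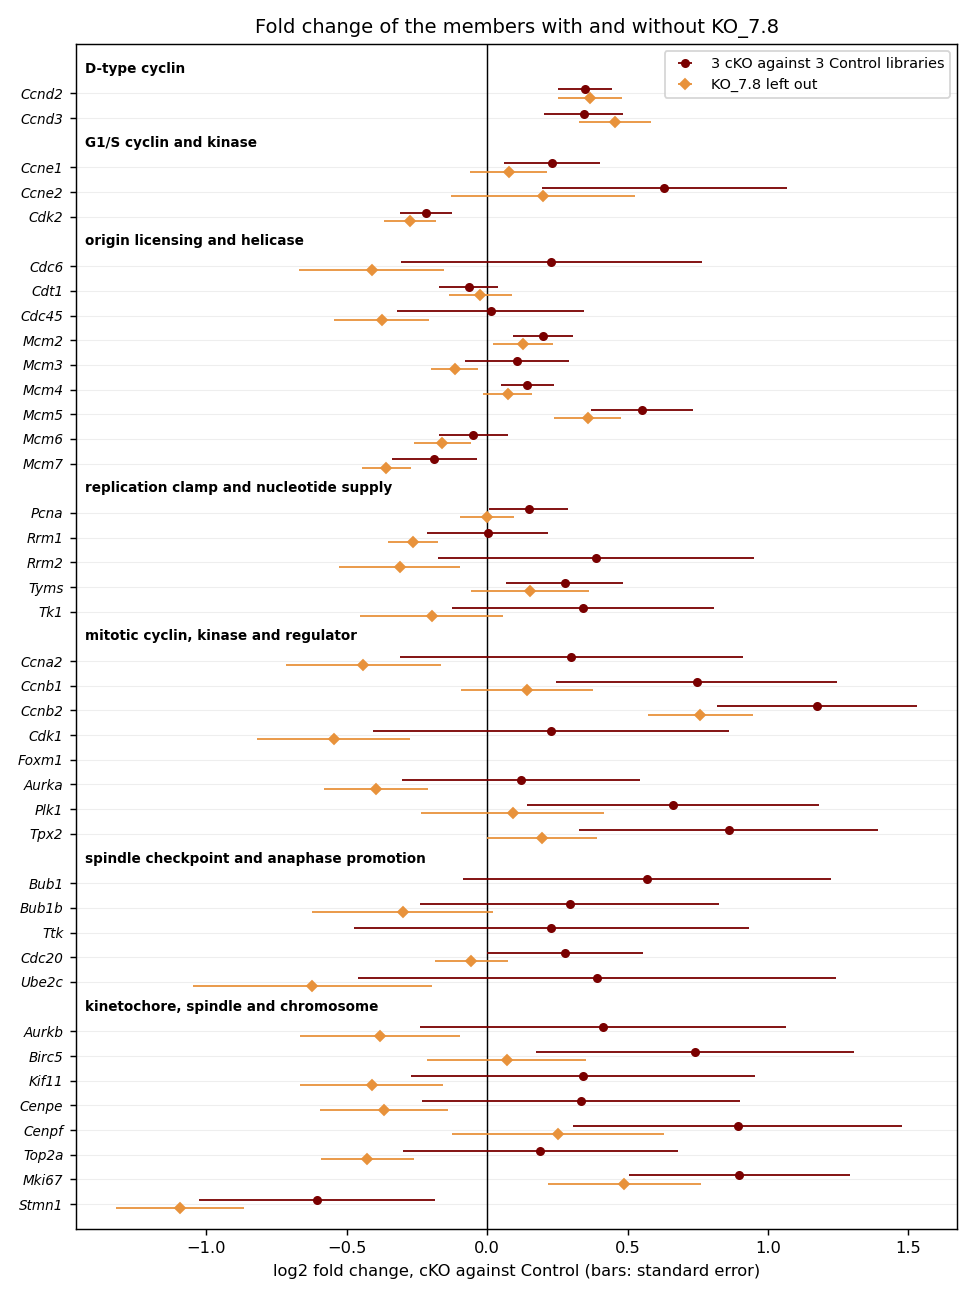
log2 fold change of cKO against Control (x axis; bars are the standard error of limma) for the members by role (y axis), with all 6 libraries (dark red circles) and with KO_7.8 left out (orange diamonds). In most replication and mitosis genes the value moves to the left without KO_7.8, and the median goes from 0.29 to -0.12. Without KO_7.8, 15 members lie to the right of 0, among them Ccnd2, Ccnd3, Mcm5 and Ccnb2. The 22 to the left include Cdk2, Mcm7 and Stmn1.

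Genes of the same pathways outside the list were compared in the same way. Of 28 other replication genes tested and of 45 other mitosis genes tested, 0 had a limma adjusted p under 0.05 in either direction. Their median log2 fold changes were -0.06 and 0.22. Without KO_7.8 they were -0.28 and -0.09, over the 27 and 43 genes that could still be tested. The median of the replication genes was thus negative in both cases, and only that of the mitosis genes changed its sign. KO_7.8 was the highest library in 19 of the replication genes and in 41 of the mitosis genes, beside 28.9% of all genes tested. Both counts and the medians with all libraries take in genes that passed the filter only with KO_7.8. The 2 largest absolute changes among the replication genes were those of Timeless, which protects the fork (-0.59 ± 0.14, limma adjusted p = 0.125), and of the chromatin assembly subunit Chaf1a (0.48 ± 0.38). Without KO_7.8 they were -0.68 ± 0.14 and 0.04 ± 0.21. Those among the mitosis genes were Nek2, a centrosome kinase (0.95 ± 0.51), and Kif2c, a microtubule depolymerase (0.74 ± 0.54), which had 0.44 ± 0.38 and 0.11 ± 0.30 without KO_7.8.

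Of 16 tested cell cycle regulators, none had a limma adjusted p under 0.05, with a median of 0.19 and of 0.18 without KO_7.8. Cdk6, a partner of the D-type cyclins, was at 3675, 3644 and 1996 in Control and at 4597, 5684 and 4931 in cKO. Its cKO libraries all lay above its Control libraries, as in 12.6% of all genes tested (log2 fold change 0.76 ± 0.24, limma adjusted p = 0.202, and 0.82 ± 0.27 without KO_7.8). Ccnd1, the D-type cyclin best known from cell types other than T cells, was at 16636 in KO_7.8, at 3311 and 4399 in the other cKO libraries and at 1960, 2070 and 3795 in Control (1.32 ± 0.60, limma adjusted p = 0.33, and 0.62 ± 0.30 without KO_7.8).

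The CDK inhibitor Cdkn1a was the only gene of these pathway lists that passed the limma test at an adjusted p under 0.05. It was at 113, 94.8 and 60.4 normalized counts in Control and at 2081, 1564 and 1879 in cKO. Cdkn1a passed the filter through its cKO mean alone (1841 normalized counts), since its Control mean of 89.5 was under the minimum. It rose by a log2 fold change of 4.39 ± 0.26 (limma adjusted p = 0.00137), and by 4.29 ± 0.29 without KO_7.8 (limma adjusted p = 0.00403). KO_7.8, the library with the highest mitotic genes, was thus also the one with the highest Cdkn1a. Of the other 3 tested inhibitors, Cdkn1b, which encodes p27, had the largest absolute change (-0.26 ± 0.14, limma adjusted p = 0.422, and -0.27 ± 0.16 without KO_7.8).

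Marker genes of other cells also differed between libraries, and their part in the members' values was not tested. The 9 B cell markers summed to between 10100 and 13305 in Control and to 8803, 4688 and 7090 in cKO. The 7 regulatory T cell markers summed to 91380, 83210 and 47434 in Control and to 96826, 112198 and 83110 in cKO, with Foxp3 lowest in CTRL_5.6 (3605 against 5489 to 7666 elsewhere). The 10 erythroid markers were high in CTRL_5.6 (5030) and KO_7.8 (3985) and between 869 and 1285 in the others. Hba-a1 was at 1791 and 1327 in those 2 libraries and between 59.3 and 207 in the others.

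The 8 cytotoxic markers summed to between 21687 and 32081 in Control and between 43504 and 51708 in cKO, while their defining marker Cd8a stayed at or under 107. Of the other lists, the 7 matched CD4 T cell markers summed to between 392246 and 483370 in all libraries. Those of germinal centre and plasma cells summed to between 3733 and 4765 in Control and between 5074 and 5654 in cKO, and those of immature thymocytes to between 6963 and 8129 and between 5692 and 6086. Neutrophil precursor markers summed to at most 281 in any library, and Elane was at 0 in CTRL_1.2 and at most 46.3 elsewhere.

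**Figure D4:**
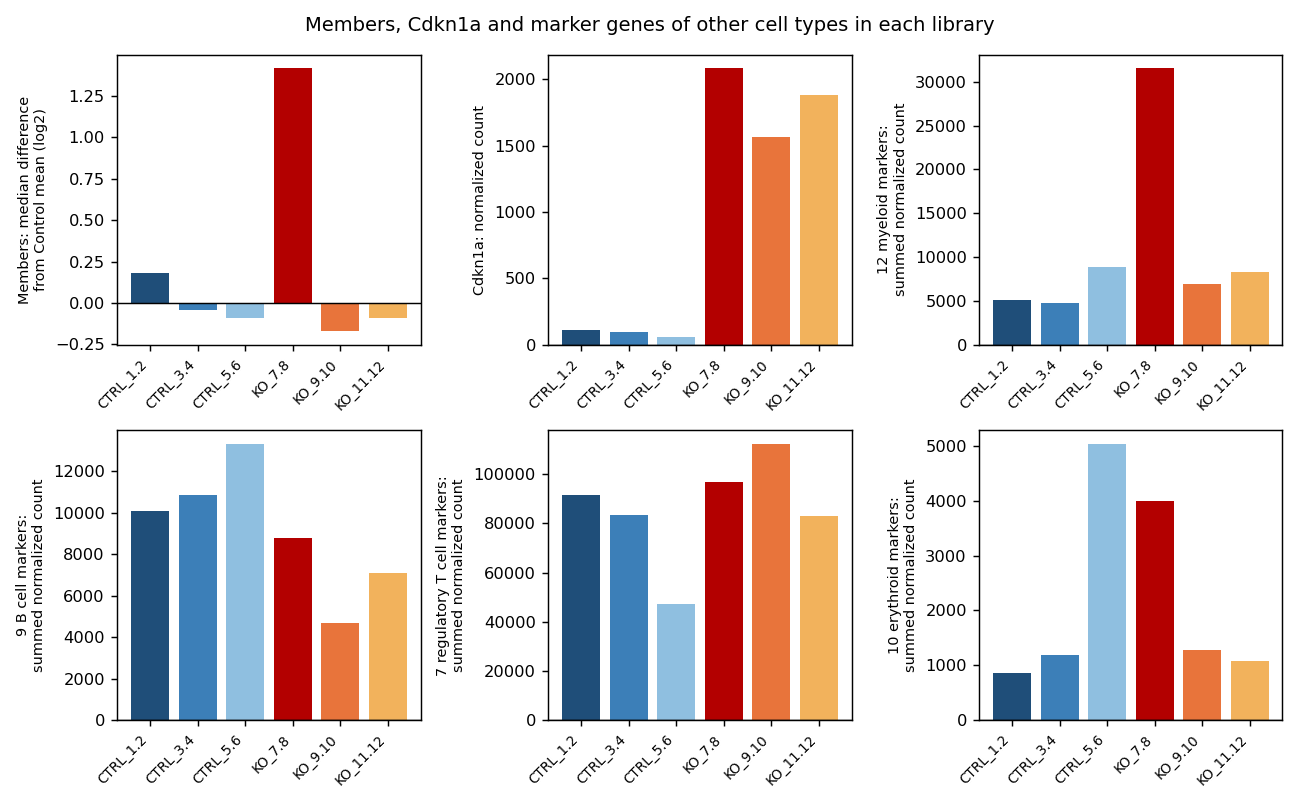
Bars for each of the 6 libraries, starting at 0, of the members' median log2 difference from the Control mean, the normalized count of Cdkn1a, and the summed normalized counts of myeloid, B cell, regulatory T cell and erythroid markers. KO_7.8 is the highest in the members (1.42) and in the myeloid markers (31540), and Cdkn1a is high in all cKO libraries (1564 to 2081).

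The promoters of the members were searched for 3 motifs that the background above names or that act with them. These were the cell cycle homology region (TTTGAA or TTTAAA), an E2F site (TTTGGCGC, TTTCCCGC, TTTGCCGC or TTTCGCGC) and the CCAAT box bound by NF-Y, each on both strands, in windows from 250 bases before to 50 bases after the start of the gene. The RefSeq table of GRCm38.p6 held 34 windows for 32 of the 40 members. The cell cycle homology region was in 61.8% of the member windows and in 27.6% of all 32851 windows. The E2F site was in 23.5% and 2.27%, and the CCAAT box in 79.4% and 37.4%. A match of letters is a description and no binding site.

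By role, the cell cycle homology region was in 5 of 5 windows of mitotic cyclins, kinases and regulators, in 6 of 6 of kinetochore, spindle and chromosome genes and in 4 of 5 of checkpoint and anaphase genes, but in 3 of 9 of licensing and helicase genes. The E2F site was in 6 of 9 licensing and helicase windows, in 1 of 5 mitotic cyclin and kinase windows and in none of the 11 checkpoint and kinetochore windows.

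The sequences of 6 members around which the results above turn are given from 150 bases before to 10 bases after the start, 5′ to 3′ on the strand of the gene, with all matches in capitals (CCAAT reads ATTGG on the other strand). They are Ccnb2, which was higher in all cKO libraries, and the cyclin Ccnb1 and the kinase Cdk1, which were not. The others are the G1/S and helicase genes Cdk2, Mcm5 and Mcm6. The regions are chr9:70421545-70421704 (minus strand) for Ccnb2, chr13:100786477-100786636 (minus) for Ccnb1, chr10:69352903-69353062 (minus) for Cdk1, chr10:128705042-128705201 (minus) for Cdk2, chr8:75109359-75109518 (plus) for Mcm5 and chr1:128359696-128359855 (minus) for Mcm6.
Ccnb2: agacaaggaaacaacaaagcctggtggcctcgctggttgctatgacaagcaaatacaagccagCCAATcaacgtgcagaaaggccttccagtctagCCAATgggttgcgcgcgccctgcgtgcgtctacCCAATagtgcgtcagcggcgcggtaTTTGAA
Ccnb1: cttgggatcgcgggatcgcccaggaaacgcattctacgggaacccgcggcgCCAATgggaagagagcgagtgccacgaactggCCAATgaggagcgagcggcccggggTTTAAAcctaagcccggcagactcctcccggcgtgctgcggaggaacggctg
Cdk1: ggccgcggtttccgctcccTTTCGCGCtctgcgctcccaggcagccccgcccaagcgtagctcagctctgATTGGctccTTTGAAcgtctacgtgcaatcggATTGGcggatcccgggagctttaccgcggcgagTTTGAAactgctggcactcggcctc
Cdk2: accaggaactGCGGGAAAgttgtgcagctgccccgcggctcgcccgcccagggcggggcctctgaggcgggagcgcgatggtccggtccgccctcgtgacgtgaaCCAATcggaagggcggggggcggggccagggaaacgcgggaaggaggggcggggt
Mcm5: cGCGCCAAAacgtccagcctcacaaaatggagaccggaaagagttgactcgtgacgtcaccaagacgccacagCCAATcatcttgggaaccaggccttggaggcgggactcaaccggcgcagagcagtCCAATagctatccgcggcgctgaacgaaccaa
Mcm6: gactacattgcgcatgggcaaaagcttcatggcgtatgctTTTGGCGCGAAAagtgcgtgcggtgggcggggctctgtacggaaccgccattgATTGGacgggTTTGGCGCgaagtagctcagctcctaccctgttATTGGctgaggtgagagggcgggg

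Both B-type cyclins hold more than 1 CCAAT box upstream of a cell cycle homology region, with 3 boxes at -87, -54 and -21 and the region at 5 bases after the start in Ccnb2, and 2 boxes at -99 and -67 and the region at -42 in Ccnb1. The position is that of the first base counted from the start. Cdk1 has the region at -71 and -15, 2 CCAAT boxes at -80 and -48, and an E2F match at -131. Mcm6 has 3 E2F matches, of which those at -110 and -106 overlap on opposite strands, and Mcm5 has 1 at -149. Ccnb2, Ccnb1 and Cdk1 each hold the CCAAT box and the cell cycle homology region in this window. A link between these matches and the fold changes was not tested.

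Splicing of the members was compared because CD2BP2/U5-52K is a protein of the U5 small nuclear ribonucleoprotein. The inclusion level is the share of transcripts with the longer form, from junction and exon reads weighted by the length of each form. Of 102 events listed in 27 members, 80 events in 23 members reached a mean of 20 reads per library in each condition and were tested. No member event was called at an FDR under 0.01 and a difference of at least 10 points, beside 0.495% of 39173 skipped exons and 0.465% of all 55912 events tested. Of the 80 events, 58 were skipped exons, 9 alternative 3′ splice sites, 5 mutually exclusive exons, 4 alternative 5′ splice sites and 4 retained introns, and Ccnd3 alone had 24 of them. At an unadjusted p under 0.05 there were 5 of the 58 skipped exons, beside 8.78% of all skipped exons. In 31 of those 58 exons inclusion was above 99% in both conditions.

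The event with the smallest p lay in Cdk2, the kinase whose level lay lower in all cKO libraries. It is an exon of 144 bases, 48 codons and wholly coding, at chr10:128699976-128700119 on the minus strand of GRCm38, exon 6 of 8 of transcript Cdk2-202 and found in 1 of the 7 transcripts that GENCODE M21 lists. Introns of 1223 and 300 bases flank it. The sequence, all in lower case, is shown since it had the smallest p of the member events.
Cdk2 exon: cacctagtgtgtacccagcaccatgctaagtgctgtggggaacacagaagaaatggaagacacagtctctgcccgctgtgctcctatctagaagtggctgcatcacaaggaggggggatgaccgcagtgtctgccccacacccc

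Its inclusion was 65.1%, 62.6% and 72.1% in the 3 Control values and 59.2%, 54.0% and 56.4% in the 3 cKO values, which the deposited table does not assign to libraries. The cKO values all lay below the Control values. The difference was -10.1 points (quasi-binomial model moderated with limma, p = 0.00232, FDR 0.097), with 576 and 595 reads per library on average. The FDR missed the threshold of 0.01.

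**Figure D5:**
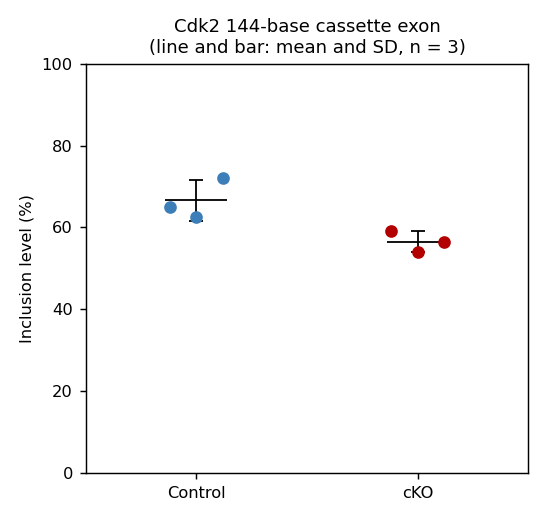
Inclusion level in percent (y axis, 0 to 100) of the 144-base cassette exon of Cdk2 in the 3 Control and 3 cKO values, with the mean and SD in black. The cKO values (54.0% to 59.2%) lie below the Control values (62.6% to 72.1%).

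The event of smallest p in each other class was looked at as well. Among alternative 3′ splice sites it lay in Ccnd3, used at 68.1%, 70.4% and 65.3% in Control and at 81.0%, 70.8% and 75.3% in cKO (7.74 points, FDR 0.454). Among mutually exclusive exons it lay in Tyms (6.22 points, FDR 0.602). Measured as skipped exons, the 2 exons of that event were included at 100% and 98.9% in Control and at 99.8% each in cKO. They were thus rarely exclusive. Among alternative 5′ splice sites the event lay in Ccnd3 (-4.03 points, FDR 0.755). Among retained introns it lay in Cdt1, whose intron was kept in less than 1% of transcripts in every value (-0.16 points, FDR 0.844). The 3 other tested member events that differed by at least 10 points in their means, in Ccnd3, Top2a and Mki67, had no p under 0.05 in that limma-moderated model. Their reads per library averaged 27.7 in Control and 20.7 in cKO for Ccnd3, 34.7 and 45 for Top2a, and 21 and 42.3 for Mki67. The differences were 27.1 points for Ccnd3 (quasi-binomial p = 0.0505, FDR 0.572), 13.3 for Top2a (p = 0.22) and -18.2 for Mki67 (p = 0.686). In this Ccnd3 exon the cKO values all lay above the Control values.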

How the data were processed

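Per the methods, reads were trimmed (cutadapt), mapped to GRCm38 from the GENCODE database (STAR) and counted for each gene (featureCounts), and rMATS was run on the alignments; no source used here names the annotation release behind the gene counts. The expression values deposited by the authors are a signal: the count of a gene divided by the DESeq2 size factor of its library, and 100% of values gave whole reads within 0.01. The deposited rMATS tables hold inclusion and skipping counts, 3 values per condition without library names, and form lengths, taken here as a score of effective bases. The authors' own fold changes and p-values were not used. All per-sample columns were mapped.

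The limma 3.58.1 test (R 4.3.3) took genes that have a symbol and reach a mean of 100 in 1 or both conditions (variance trend, pseudocount 1, two-sided, Benjamini-Hochberg adjustment over all genes tested), a scale that understates the fold change of low genes. edgeR 4.0.16 and DESeq2 1.42.0 on the whole reads were alternatives, as were other filters, scalings and left-out libraries. Splicing events were tested by a quasi-binomial model with the dispersion moderated by limma, a floor of 1 and a prior from events whose rarer form had at least 5 reads per library. Both steps were tested on simulated data. The columns of the splicing tables were assigned to conditions by the study's definition of the inclusion difference; reads of Cd2bp2 there were 132, 144 and 104 in Control and 27, 13 and 28 in cKO. Levels between genes were compared per kilobase of merged exons of GENCODE M21. Kif11 has 2 identifiers in the table, of which the one with reads was used. Overlapping genes and near-identical copies cannot be told apart in such counts, and the use of strand was not examined. Precision is limited by 3 libraries per condition, and chi-square per gene between libraries of 1 condition was at least 23.7, so that none was a repeat within sampling noise.

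All members were accounted for. Of the pathway lists, genes past the test and the 2 largest absolute changes were named, and of the marker lists the defining markers. The members and all lists were chosen with earlier results of these data known. Tables and figures used Python 3.11.15, numpy 2.4.6, pandas 2.3.3 and matplotlib 3.10.9.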

Additional observations from a re-analysis of the deposited data

How the results depend on the processing

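No paired analysis was possible because the labels give the libraries of the conditions no shared number that ties a Control to a cKO mouse. The count of members called by limma was 0 under each alternative scaling, filter, pseudocount and left-out library, and 1 with DESeq2 (Ccnb2). With an adjusted p under 0.05 alone there were 2 members with DESeq2 and 7 with library quality weights, which gave KO_7.8 the lowest weight. Count tests without KO_7.8 were chosen after seeing the data. There DESeq2 called 1 member (Stmn1) and gave 6 at an adjusted p under 0.05, and edgeR gave 0. With the adjusted p alone DESeq2 gave 8.42% of all genes with all libraries and 8.69% without KO_7.8. Its shares with the fold change limit added are not given here, so the calls of Ccnb2 and Stmn1 cannot be weighed. The median log2 fold change of the members was -0.0799 with quality weights, and -0.13 with edgeR and -0.13 with DESeq2 without KO_7.8. Over all single left-out libraries it ran from -0.12, without KO_7.8, to 0.58.

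Of the 37 members that could be fitted under every alternative, 15 kept the sign of the log2 fold change throughout and 22 did not. Bub1 and Ttk were under the minimum without KO_7.8 and with a minimum in both conditions. In the alternatives run for them Bub1 kept its sign and Ttk did not. With quality weights the sign turned in Ccne2 (-0.0416), Cdc6 (-0.51), Cdt1 (0.0381), Cdc45 (-0.37), Mcm3 (-0.0799), Rrm1 (-0.23), Rrm2 (-0.33), Tyms (-0.0374), Tk1 (-0.39), Ccna2 (-0.41), Cdk1 (-0.58), Aurka (-0.32), Plk1 (-0.0569), Bub1b (-0.41), Ttk (-0.53), Ube2c (-0.52), Aurkb (-0.41), Kif11 (-0.38), Cenpe (-0.33) and Top2a (-0.54). With TMM rescaling it turned in Cdc45 (-0.0018) and Rrm1 (-0.0127). Over the left-out libraries, values ran from -0.41 to 0.58 for Cdc6, -0.38 to 0.22 for Cdc45, -0.12 to 0.23 for Mcm3, -0.16 to 0.0106 for Mcm6, -1.7e-04 to 0.25 for Pcna, -0.26 to 0.16 for Rrm1, -0.31 to 0.81 for Rrm2, -0.20 to 0.67 for Tk1, -0.44 to 0.77 for Ccna2, -0.55 to 0.65 for Cdk1, -0.40 to 0.45 for Aurka, -0.30 to 0.68 for Bub1b, -0.0565 to 0.50 for Cdc20, -0.62 to 0.99 for Ube2c, -0.38 to 0.88 for Aurkb, -0.41 to 0.83 for Kif11, -0.37 to 0.70 for Cenpe and -0.43 to 0.56 for Top2a. The low end was the value without KO_7.8 in each of them.

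With the dispersion prior over all tested events, 1 member splicing event was called. The share of all events called with that prior is not given here, so this count cannot be weighed. At a minimum of 10 reads, with no minimum difference, and without any 1 of the 6 values, 0 were called. The causes of these shifts were not tested.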

Other observations

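Ratios within a library do not depend on its depth or on its scaling, and 4 of them were looked at after the values had been seen. Mki67 over Top2a was 0.589, 0.483 and 0.412 in the Control libraries and 0.603 in KO_7.8, with 0.910 and 0.937 in the other cKO libraries. Ccnb2 over Ccnb1 was 1.35, 1.63 and 1.58 in Control and 1.57, 2.33 and 2.32 in cKO. Ccnb2 over Cdk1 was 2.73, 3.21 and 3.91 in Control and 3.80, 7.06 and 9.20 in cKO. In these 3 ratios KO_7.8 lay in or near the Control range and the other cKO libraries above it.

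Mcm5 over Mcm7, both subunits of the same helicase ring, was 0.753, 0.746 and 0.595 in Control and 1.19, 1.18 and 1.11 in cKO. Here all 3 cKO libraries, KO_7.8 included, lay above all 3 Control libraries. The ratios carry no test since they were picked for their values.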
